A study of Rattus norvegicus with 56 samples.

Results

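The genes described here are 10 genes commonly used to mark astrocytes: Gfap, Aqp4, Slc1a2, Slc1a3, Aldoc, Aldh1l1, S100b, Gja1, Gjb6 and Glul. They were taken by name, and their probes were found through the RefSeq accession that the array gives for each probe. They had 12 of the 45598 probes on the array and were 10 of the 16581 genes with a named probe. Slc1a3 and S100b had 2 probes each, of which the brighter was used throughout.

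RNA came from primary hippocampal neuron cultures made from E18 Sprague-Dawley rats, kept in Neurobasal medium with B27. Dishes received 1 Hz repetitive transcranial magnetic stimulation (rTMS), which delivers evenly spaced magnetic pulses, or intermittent theta burst stimulation (iTBS), which delivers them in short bursts. Sham dishes stood in the incubator with the coil moved away, and untreated dishes (CTR) were collected at 0 h only. Collection was at 0 h, 2 h, 8 h, 24 h or 48 h from the end of stimulation, with 1 RNA sample per 1-colour Agilent array, in 16 groups of 3 or 4 arrays. An array, replicate 2 of 1 Hz at 2 h, carried a flag for a failed grid from the scanner software, and its correlation with the average of all other arrays was -0.0102. Without it 55 arrays remained, 2 of them in that group.

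Sample numbers fell into 4 runs that pass through all times, called culture series A, B, C and D here, with 11, 12, 17 and 15 arrays. The labels do not say whether a run is 1 dissection, and they do not say that replicates are separate cultures, so p-values measure the spread between these samples. Each slide carried 8 arrays and was scanned as 1 unit. Series A, B and C lay on slides of their own, whereas series D was spread over all 7. Within each series, no slide held both a 0 h and a 48 h array.

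Astrocytes support neurons by taking up glutamate and potassium, by moving water and by feeding energy metabolism. Gfap encodes an intermediate filament that becomes abundant in reactive astrocytes. Slc1a2 (GLT-1) and Slc1a3 (GLAST) clear glutamate from the synapse, and Glul, glutamine synthetase, turns it into glutamine. Aqp4 is the main water channel of these cells, and Gja1 and Gjb6 (connexin 43 and connexin 30) form the gap junctions between them. S100b is a calcium-binding protein, Aldoc a glycolytic enzyme and Aldh1l1 a folate enzyme.

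Probes of 9 of the 10 genes were well above background on all 55 arrays. The exception was Gjb6, which was well above background on 41 of them. The processed signal of Aldoc ran from 36210 to 319200 with a median of 99155, that of Slc1a3 from 30930 to 182470 with a median of 73055, and that of Gfap from 130 to 20534 with a median of 1489. These signals are not normalised between arrays. The highest values of Aldoc and Slc1a3 both came from 1 Hz at 48 h replicate 1, the brightest array. The background itself lay between 24.0 and 40.5. All 10 neuron markers on the list used were also well above background on every array, as were all 5 oligodendrocyte progenitor markers and all 5 oligodendrocyte markers. Of 7 microglia markers, Cx3cr1 and Itgam were above background on all 55 arrays, P2ry12 on 54, Aif1 on 32, C1qa on 25, Tmem119 on 21 and Csf1r on 7. Some of these counts split by series. In series A, B, C and D, C1qa was above background on 10 of 11, 0 of 12, 0 of 17 and 15 of 15 arrays. Aif1 was so on 10, 3, 4 and 15 of them, and Tmem119 on 0, 2, 4 and 15. For comparison between arrays, log2 signals were put on a common scale on which the mean probe of an array is 0 and a difference of 1 stands for about a 2-fold change. In bulk RNA, a change in the number of astrocytes and a change in RNA per astrocyte cannot be told apart.

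The 300-base windows around the start sites of 3 of these genes are shown, because Gfap and Gja1 rose over the 48 h in every series while Aldh1l1 did not. All 10 genes matched the RefSeq promoter table (build GRCr8), whose windows run from 250 bases before the start to 50 after it. Capitals mark matches to the motifs searched on both strands: the AP-1 letters TGANTCA, the STAT letters TTCNNNGAA, the TATA box letters TATAAA and the GC box letters GGGCGG. Matches in these windows did not overlap.
Gfap, chr10:88361612-88361911 (minus strand): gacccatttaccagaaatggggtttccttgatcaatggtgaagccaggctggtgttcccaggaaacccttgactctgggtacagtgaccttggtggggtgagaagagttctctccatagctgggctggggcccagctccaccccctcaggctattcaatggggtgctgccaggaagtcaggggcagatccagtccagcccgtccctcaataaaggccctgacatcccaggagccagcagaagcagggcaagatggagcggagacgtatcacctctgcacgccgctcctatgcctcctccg
Gja1, chr20:36302314-36302613 (plus strand): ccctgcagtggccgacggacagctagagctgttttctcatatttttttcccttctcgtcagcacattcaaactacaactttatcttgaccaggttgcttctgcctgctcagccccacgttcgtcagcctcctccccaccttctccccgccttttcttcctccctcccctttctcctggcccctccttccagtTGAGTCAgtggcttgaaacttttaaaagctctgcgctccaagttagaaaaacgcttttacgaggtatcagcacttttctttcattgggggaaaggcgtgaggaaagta
Aldh1l1, chr4:124616970-124617269 (plus strand): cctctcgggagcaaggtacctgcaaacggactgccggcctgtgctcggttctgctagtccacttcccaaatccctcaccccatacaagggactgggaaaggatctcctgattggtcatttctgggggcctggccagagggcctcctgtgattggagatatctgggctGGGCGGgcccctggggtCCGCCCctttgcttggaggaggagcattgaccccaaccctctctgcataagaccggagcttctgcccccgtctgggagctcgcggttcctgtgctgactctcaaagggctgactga

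No motif matched in the Gfap window. The Gja1 window held 1 AP-1 match, and the Aldh1l1 window held 2 GC boxes. Over all 27457 genes with a promoter in the table, 7.33% held the AP-1 letters, 8.68% the STAT letters, 14.3% the TATA box and 34.9% the GC box. Among the first listed windows of the 10 genes, 1 held an AP-1 match, 6 a GC box and 0 any of the other motifs. A match is a match of letters and says nothing of binding.

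The first question was whether either protocol changed the astrocyte genes. It did not detectably do so: 0 of the 10 genes passed in any of the 10 comparisons with sham, in the 5 comparisons of iTBS with 1 Hz, or between untreated and sham dishes (limma, Benjamini-Hochberg with an adjusted p below 0.05 counted as a call). Few probes of any kind passed. Over all 35694 probes tested, 0% passed in 7 of the comparisons with sham, 0.0056% in 1 Hz at 2 h and iTBS at 8 h, and 0.0028% in 1 Hz at 8 h. The share was 0.0028% for untreated against sham, and at most 0.0056% for iTBS against 1 Hz. The smallest unadjusted p over the 100 values of a gene in a comparison with sham was 0.0943, for Aqp4 with 1 Hz at 8 h (limma).

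Gfap varied widely between the arrays of a group. At 48 h it lay at 3.70, 4.26 and 6.84 in sham cultures, at 2.89, 4.40, 4.85 and 6.44 after 1 Hz, and at 4.52, 4.68, 5.03 and 7.03 after iTBS. In each group the highest value belonged to series D and the lowest to series A. The 3 groups overlapped over most of their range. S100b, which varied less, lay at 8.22, 8.39 and 8.90 in sham cultures, at 8.19, 8.22, 8.49 and 8.99 after 1 Hz and at 8.39, 8.43, 8.89 and 9.35 after iTBS at the same time.

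Untreated dishes came from series A and C alone. Their Gfap lay at 1.54 and 2.72 in A and at 2.89 and 3.52 in C, where the sham array of 0 h lay at 2.21 and 3.19. So the sham value of Gfap fell between the untreated values in both series. Gja1 was different: its untreated values lay above sham in both, at 6.69 and 6.70 against 6.08 in A and 6.59 and 6.61 against 6.56 in C. With the series at each time as a block, the differences of untreated from sham over the 10 genes ran from -0.16 to 0.41. Of these, 1 had an unadjusted p under 0.05 and none passed (smallest adjusted p = 0.63, limma).

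The differences from sham over the 10 comparisons and 10 genes ran from -0.78 to 0.64, with standard errors between 0.20 and 1.08. With the series at each time as a block, which compares arms within a series and time, the differences ran from -0.52 to 0.59 and the standard errors from 0.11 to 0.36. Of 100 such values 7 reached an unadjusted p below 0.05, none of them after adjustment (smallest adjusted p = 0.21, limma). Of 50 values of iTBS against 1 Hz in that fit, 4 had an unadjusted p under 0.05. The share over all probes was not counted in that fit. Among the 4, Glul at 48 h was 0.36 ± 0.11 (SE) higher after iTBS (adjusted p = 0.143, limma). Gfap at 48 h was 0.67 ± 0.22 higher (adjusted p = 0.16, limma). Neither passed.

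**Figure D1:**
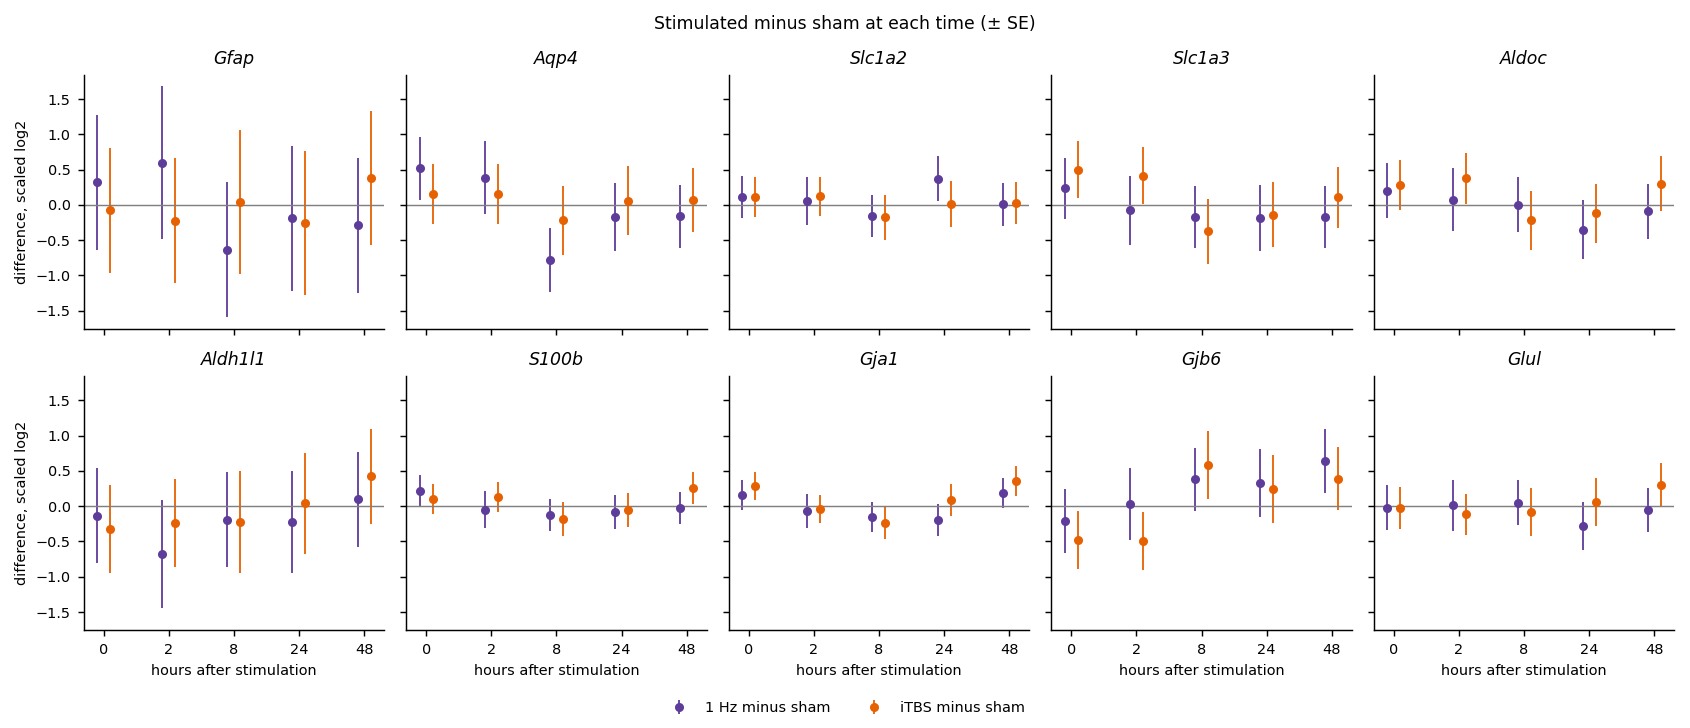
Each panel shows 1 gene, with hours after stimulation on the x axis and the difference from sham on the scaled log2 signal on the y axis. Points are 1 Hz (purple) and iTBS (orange), bars are standard errors of the fit over groups, and 0 of the 100 differences passed. The bars of Gfap and Aldh1l1 are the widest.

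Averaged over the 5 times, Gfap differed from sham by -0.06 after 1 Hz (95% interval -0.31 to 0.19) and by -0.03 after iTBS (95% interval -0.25 to 0.20), with the series at each time as a block. Of the 10 genes, 0 passed or had an unadjusted p under 0.05 in either average. Across the 10 genes and both protocols, the bounds of these intervals lay between -0.34 and 0.41. In the fit over groups, without that block, 0% of all probes passed in either average. In the same fit the contrasts with sham did not pass a test of a difference between times for any of the 10 genes. Nor did they for any probe (0%). By the study's criteria as computed here, which use z-ratios, 0 of the 10 genes were called in the 10 comparisons. The largest absolute z-ratio of a member was 2.17. Among all 35694 probes these criteria called between 0 and 13 in a comparison. The paper lists far more genes in each, so its counts were not reproduced and the 0 says little about the 10 genes.

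The clearest pattern among these genes followed time. From 0 h to 48 h, averaged over sham, 1 Hz and iTBS and with the series in the model, 8 of the 10 genes rose and 0 fell. The model gives every series the same change over time. Its standard errors and p-values thus do not measure how the change varied between series, which is described further below. Untreated dishes have no part in the 0 h values of this comparison. The exceptions that did not pass were Slc1a3 and Aldh1l1. Over all probes 27% passed and 13.6% passed as higher. The median change of the 10 genes was 0.85, beside -0.04 over all probes tested. At 2 h, 0 of the 10 genes passed (limma), as did 0% of all probes, and at 8 h it was 0 of 10 beside 2.37%. At neither time did any of the 10 genes have an unadjusted p under 0.05. At 24 h, 4 of the 10 were higher and 0 lower, beside 14% of all probes called and 8.58% called as higher. They were Gfap, Aqp4, Gjb6 and Glul, and only 2 passed when sham at 0 h replicate 2, 1 Hz at 0 h replicate 1, 1 Hz at 24 h replicate 1 or iTBS at 24 h replicate 3 was left out. A joint test over all times passed for 9 of the 10 genes, all but Slc1a3 (27% of all probes).

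Gfap rose by 24 h. Its scaled log2 signal ran from 2.21 to 5.19 at 0 h (median 3.12, 11 arrays) and from 2.89 to 7.03 at 48 h (median 4.68, 11 arrays). These ranges overlapped, but within each series every 48 h array lay above every 0 h array. In series A the 0 h values were 2.21 and 2.36 and the 48 h values 2.89, 3.70 and 4.52. In series B they were 2.81, 2.91 and 3.12 against 4.85 and 5.03. In series C they were 3.04, 3.19 and 3.37 against 4.26, 4.40 and 4.68, and in series D 4.72, 5.05 and 5.19 against 6.44, 6.84 and 7.03. The change was 1.64 ± 0.22 (SE) at 48 h (adjusted p = 5.5e-07, limma) and already 1.49 ± 0.23 at 24 h (adjusted p = 1.8e-05, limma). At 8 h it was 0.36 ± 0.22 and did not pass.

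S100b rose late. It ran from 7.16 to 7.76 at 0 h (median 7.49) and from 8.19 to 9.35 at 48 h (median 8.43), so that every 48 h array lay above every 0 h array. The change was 1.03 ± 0.12 (adjusted p = 5.5e-08, limma), whereas at 24 h it was 0.28 ± 0.13 and did not pass. The second S100b probe changed by 1.18 ± 0.13 (adjusted p = 7.8e-09, limma), and both probes had r = 0.92 over the 55 arrays.

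Both gap junction genes rose. Gja1 ran from 6.08 to 6.98 at 0 h (median 6.55) and from 6.58 to 7.72 at 48 h (median 7.24), a change of 0.70 ± 0.09 (adjusted p = 3.1e-07, limma). Within every series its 48 h arrays lay above its 0 h arrays of the 3 arms, but in series A both untreated arrays (6.69 and 6.70) lay above the lowest 48 h array. Gjb6 ran from -3.23 to -1.93 at 0 h (median -2.67) and from -2.88 to -0.30 at 48 h (median -1.39), a change of 1.03 ± 0.21 (adjusted p = 0.00032, limma). Its 48 h mean lay above its 0 h mean by 1.69, 2.07 and 0.63 in series A, B and C. In series D the difference was 0.20, and the 0 h and 48 h arrays overlapped. At 0 h, 7 of 11 arrays showed Gjb6 well above background, and at 48 h 11 of 11 did, so the dim end of its range is imprecise.

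Aqp4 ran from 6.79 to 8.67 at 0 h (median 8.25) and from 7.92 to 9.73 at 48 h (median 9.02), and rose by 1.04 ± 0.16 (adjusted p = 9.8e-06, limma). At 24 h it was 0.52 ± 0.17 higher (adjusted p = 0.036, limma). Glul ran from 5.22 to 6.43 at 0 h (median 5.75) and from 6.09 to 7.77 at 48 h (median 6.69), with a rise of 0.65 ± 0.17 by 24 h (adjusted p = 0.0066, limma) and 1.01 ± 0.16 by 48 h (adjusted p = 1e-05, limma). Of both genes, every 48 h array lay above every 0 h array of its series.

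Of the glutamate transporters, only Slc1a2 rose. Slc1a2 ran from 3.72 to 4.57 at 0 h (median 4.04) and from 3.94 to 5.29 at 48 h (median 4.65), and rose by 0.48 ± 0.14 (adjusted p = 0.011, limma). With the slide as a block this was 0.23 ± 0.27 and no longer passed (adjusted p = 0.59, limma). Slc1a3 ran from 8.48 to 10.24 at 0 h and from 8.72 to 10.71 at 48 h, and its difference of 0.17 ± 0.14 did not pass (adjusted p = 0.38, limma). It passed under quantile normalization (0.27) and after normexp background correction (0.24), and its second probe differed by -0.08 ± 0.19. Aldoc ran from 9.17 to 10.32 at 0 h and from 9.32 to 11.39 at 48 h, and rose by 0.49 ± 0.15 (adjusted p = 0.012, limma). This average came from series A and B, where its 48 h mean lay above its 0 h mean by 0.62 and 1.52. In series C and D the difference of the means was only 0.03 and 0.10. Aldh1l1 ran from 2.70 to 5.30 at 0 h and from 2.58 to 5.08 at 48 h, a difference of -0.13 ± 0.16 (adjusted p = 0.57, limma).

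**Figure D2:**
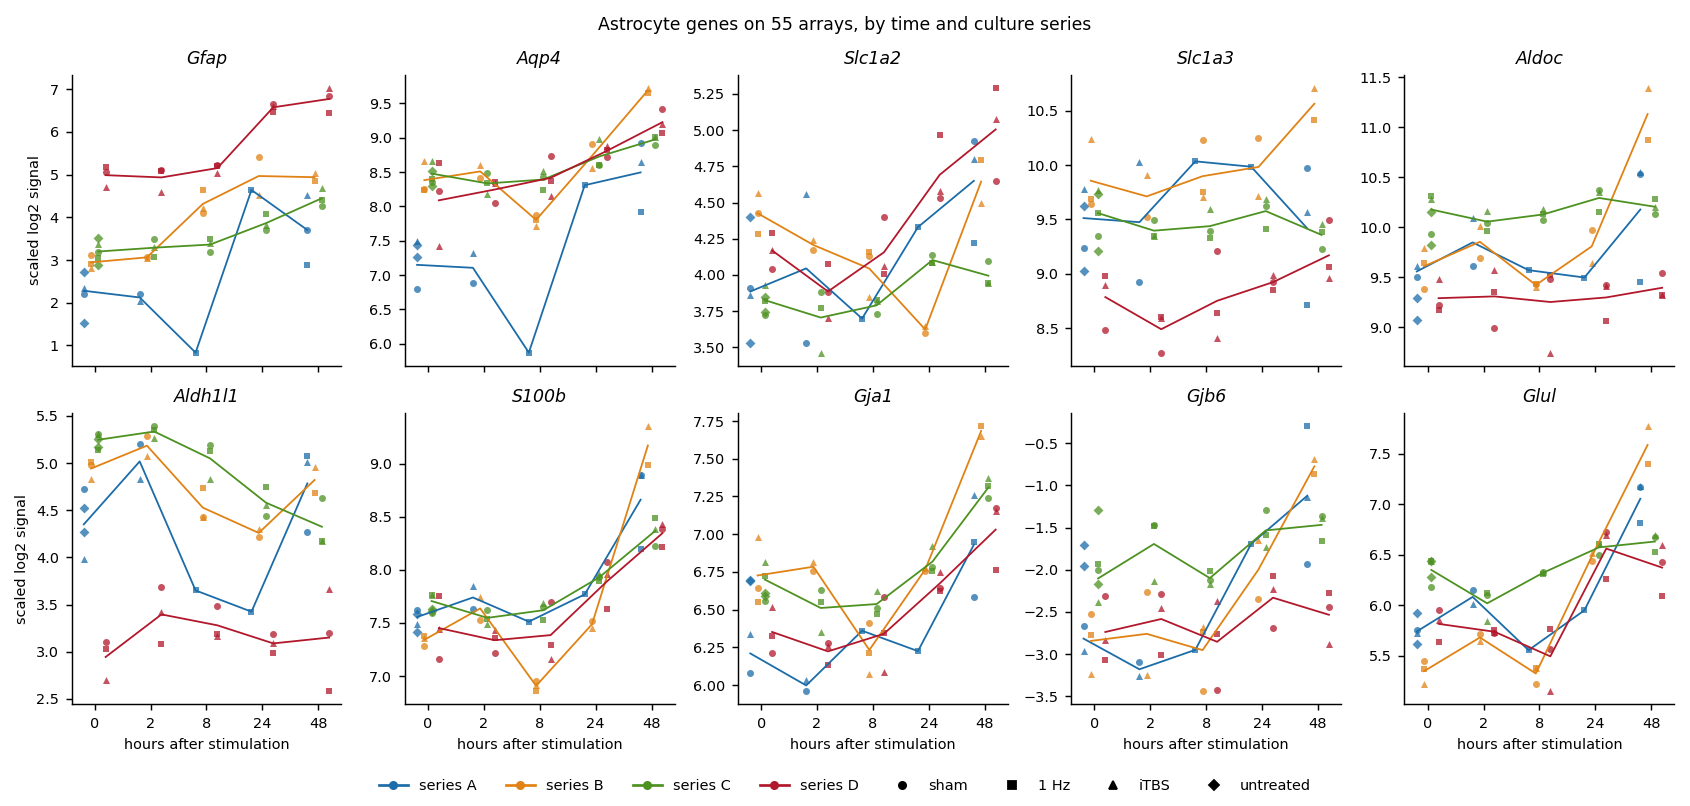
Each panel shows 1 gene on the 55 arrays, with hours after stimulation on the x axis and the scaled log2 signal on the y axis. Colours are the 4 culture series, symbols the arms, and lines join the means of sham, 1 Hz and iTBS arrays of a series. S100b and Gja1 end higher at 48 h in all 4 series, the line of series D lies above the others for Gfap and below them for Aldh1l1.

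Within a series, no slide holds both 0 h and 48 h arrays. Time and slide are told apart there only indirectly, through the few times whose arrays span slides. Over the series together, where the slides are staggered, the slide was added as a block. Then 7 of the 10 genes still passed at 48 h, all but Slc1a2, Slc1a3 and Aldh1l1, with changes of 1.77 for Gfap, 1.25 for S100b, 1.51 for Glul, 1.43 for Aqp4, 1.78 for Gjb6, 0.75 for Gja1 and 0.78 for Aldoc. Without the series term only 5 genes passed, and the change of Gfap was 1.49 ± 0.54 (adjusted p = 0.065, limma). The share of all probes was counted neither with the slide as a block nor without the series term. Leaving out each array in turn gave 8 calls every time. In the sham groups alone, 0 of 10 genes passed a test over time (0.0784% of all probes), and 3 had an unadjusted p under 0.05, with S100b closest (adjusted p = 0.072, limma). With the series as a block, 4 passed: S100b, Gfap, Aqp4 and Gja1, with adjusted p of 0.0096, 0.013, 0.027 and 0.032 (limma), beside 3.3% of all probes.

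The course over time differed between the series for 8 of the 10 genes, all but Slc1a3 and Gja1 (41.9% of all probes). From 0 h to 48 h, 8 genes passed in series A (21.1% of all probes), 7 in series B (33.3%), 4 in series C (7.42%) and 6 in series D (22%). Gfap, S100b and Gja1 rose in all 4 series. The 4 calls in series C were these and Aldh1l1, which there fell by 0.90 ± 0.20 (adjusted p = 0.0028, limma), from 5.13, 5.30 and 5.30 to 4.17, 4.18 and 4.63. In series A, B and D its differences of 0.43, -0.08 and 0.21 did not pass. With the slide as a block in this fit, 5 genes passed the test of a difference between series, 5 passed in series A, and 0 passed in series C or D. The share of all probes was not counted with that block.

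Glul differed most clearly between series in its course (adjusted p = 1.3e-07, limma). In series B it went from 5.22, 5.37 and 5.44 at 0 h to 7.40 and 7.77 at 48 h, a rise of 2.26 ± 0.16 (adjusted p = 2.1e-12, limma). In series A the rise was 1.33 ± 0.14 and in series D 0.56 ± 0.14. In series C, which began higher at 6.18, 6.43 and 6.43, it ended at 6.52, 6.68 and 6.69, and the difference of 0.29 ± 0.13 did not pass. S100b likewise rose by 1.83 ± 0.17 in series B and by 1.12 ± 0.15, 0.67 ± 0.14 and 0.89 ± 0.15 in series A, C and D. Series A had 1 array each at 8 h and 24 h, and its 8 h array (1 Hz) held the lowest Gfap (0.83) and Aqp4 (5.87) of all arrays.

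**Figure D3:**
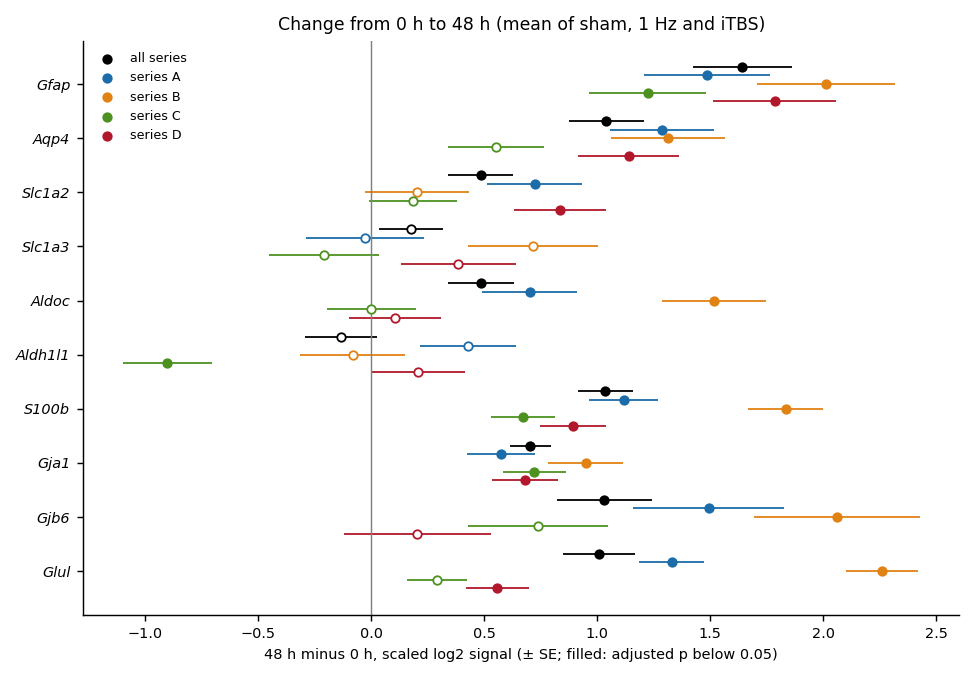
The x axis gives the change from 0 h to 48 h on the scaled log2 signal with its standard error, and the y axis the 10 genes, over all series (black) and within each series (colours). Filled points have an adjusted p below 0.05. Gfap, S100b and Gja1 are filled in all rows, and Aldh1l1 lies at -0.90 in series C.

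Other astrocyte genes, taken from a list of 62 grouped by role of which 59 were tested, moved less uniformly. At 48 h, 25 of the 59 were higher and 4 lower than at 0 h, and their median change was 0.28. Over all probes 13.6% were higher and 13.4% lower, against which the counts of the groups that follow are to be read. Metabolic genes held the highest share, 6 of 8 higher and 0 lower. They were led by Pla2g7, a lipid-cleaving phospholipase (1.77 ± 0.16), Ppp1r3c, a regulator of glycogen synthesis (1.16 ± 0.20), and Pygm, a glycogen phosphorylase (1.07 ± 0.12). Of 7 genes of potassium, water and ion handling 4 were higher, among them Atp1b2, a subunit of the sodium pump (0.81 ± 0.11), and Mlc1 (0.47 ± 0.12). Of 10 genes for secreted proteins 5 were higher, led by Clu, clusterin (0.89 ± 0.15), and Sparcl1 (0.70 ± 0.08).

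Of 8 receptors 3 were higher, with Gpr37l1 at 1.5 ± 0.19 and Ntsr2 at 1.01 ± 0.12, and Grm3, a metabotropic glutamate receptor, was lower (-0.37 ± 0.14). Among 10 genes of intermediate filaments and the reactive state 5 were higher and 1 lower. They included Lcn2, lipocalin 2 (1.5 ± 0.29), Serpina3n (1.26 ± 0.46, above background on 28 of 55 arrays) and S100a6 (1.2 ± 0.27), whereas Nes, nestin, was lower (-0.64 ± 0.16). The growth-linked group had 2 of 6 higher, and Tnc, tenascin C, was lower (-1.01 ± 0.22). Of 7 transcription factors 0 were higher and Id3 was lower (-0.87 ± 0.32), and of 3 genes of transmitter uptake 0 passed.

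Markers of other cells were set beside these. Of 10 neuron markers 0 were higher at 48 h and 3 lower, a share called near the 27% of all probes: Map2 (-0.64 ± 0.19), Tubb3 (-0.63 ± 0.20) and Stmn2 (-0.38 ± 0.11). The mean level of the neuron list on an array ran from 4.87 to 5.76 at 0 h (11 arrays) and from 4.84 to 5.48 at 48 h (11 arrays). Of 7 microglia, 5 oligodendrocyte progenitor and 5 oligodendrocyte markers 0 passed. Of 9 endothelial, mural and fibroblast markers Lum was higher (1.14 ± 0.22) and Col1a1 lower (-0.92 ± 0.28). Of 5 neural progenitor markers, Pax6 was higher (0.39 ± 0.10) and Nes, which stands on both lists, lower, and of 3 choroid plexus and ependyma markers 0 passed. The part that these shifts had in the rise of the astrocyte genes was not tested.

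**Figure D4:**
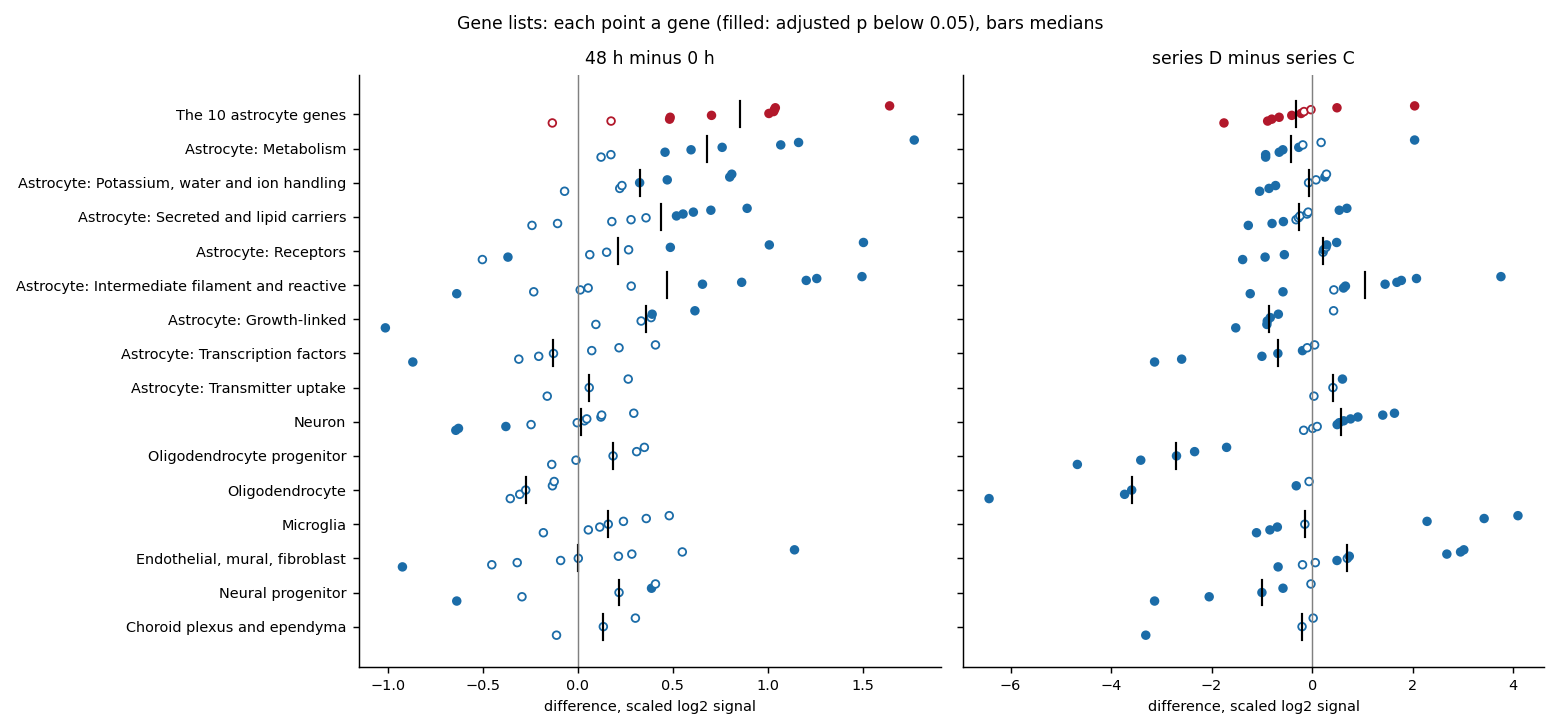
Each point is a gene and each row a list, with the median as a bar, for the change from 0 h to 48 h (left) and for series D minus series C (right), both on the scaled log2 signal. Filled points have an adjusted p below 0.05. On the left the 10 astrocyte genes have a median of 0.85, and on the right they spread to both sides of 0 while all 5 oligodendrocyte progenitor markers are lower.

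The culture series differed for 9 of the 10 genes, all but S100b (75.4% of all probes). The second S100b probe did differ between series D and B, by 0.39 (adjusted p = 0.0042, limma). They did not differ as 1 block: series D held the most Gfap and the least Aldh1l1. Gfap ran from 4.59 to 7.03 in series D (median 5.19), from 0.83 to 4.64 in series A (median 2.36), from 2.81 to 5.40 in series B (median 4.15) and from 2.89 to 4.68 in series C (median 3.49). The lowest array of series D lay below the highest of each other series. On average D was higher than A by 2.95 ± 0.21, than B by 1.59 ± 0.20 and than C by 2.04 ± 0.18 (adjusted p of 1.9e-14, 1.3e-08 and 3.6e-12, limma). With the slide as a block these were 2.99, 1.30 and 2.16, and all passed.

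Aldh1l1 ran the other way. It lay between 2.58 and 3.68 in series D (median 3.16), between 3.42 and 5.2 in A (median 4.53), between 4.21 and 5.29 in B (median 4.78) and between 4.17 and 5.39 in C (median 5.13). Series D overlapped with neither B nor C. Series D differed by -1.22 ± 0.16 from A, by -1.54 ± 0.15 from B and by -1.75 ± 0.13 from C (adjusted p of 3.5e-08, 1.7e-11 and 4.3e-14, limma), and all 3 passed with the slide as a block.

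Aldoc was lower in series D as well, at -0.42 ± 0.14 against A, -0.59 ± 0.13 against B and -0.89 ± 0.12 against C. With the slide as a block it passed only against C. Slc1a3 ran from 8.27 to 9.49 in D (median 8.90) and from 9.52 to 10.71 in B (median 9.83), with no overlap, and D differed from A, B and C by -0.73 ± 0.14, -1.18 ± 0.13 and -0.66 ± 0.12. Its second probe was lower in D than in A (-0.83) and B (-0.99) but not than in C (0.15, adjusted p = 0.46, limma), so the probes disagree on the last comparison. Aqp4 set series A apart. It ran from 5.87 to 8.92 in A (median 7.44), with medians of 8.49, 8.51 and 8.63 in B, C and D, which were higher than A by 1.12 ± 0.17, 1.08 ± 0.15 and 1.06 ± 0.16. With the slide as a block B no longer differed from A in a call (0.61 ± 0.36, adjusted p = 0.50, limma), while C and D still did. Against B and C, series D did not differ in Aqp4 beyond its error.

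In all, 5 of the 10 genes differed between D and A (41.7% of all probes), 5 between D and B (53%) and 8 between D and C (52.5%). Between B and A it was 4 (30.4%), or 0 with the slide as a block, between C and A 5 (42.9%) and between C and B 4 (32.7%). Between D and C, 2 genes, Gfap and Slc1a2, were higher in D and 6 were lower. The slide as a block changed other comparisons too. Between C and A, Gfap, Gja1 and Aldh1l1 then no longer passed, whereas Gjb6 and Slc1a2 did. Between D and B 3 genes passed, Aldoc no longer passed between D and A, and Gja1 no longer between D and C.

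**Figure D5:**
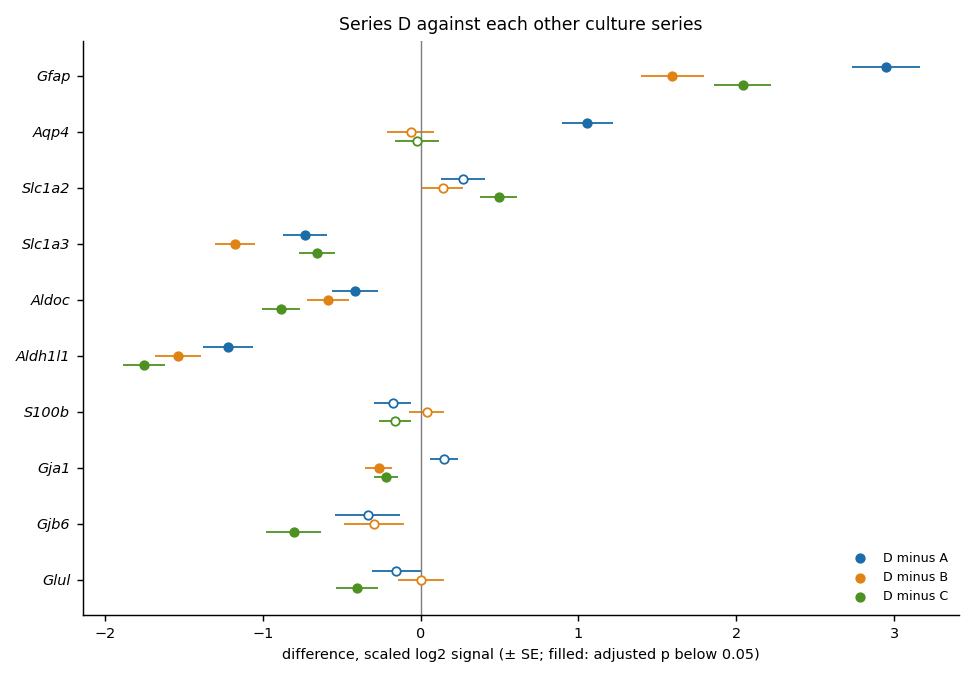
The x axis gives the difference between series D and series A, B or C (colours) on the scaled log2 signal with its standard error, and the y axis the 10 genes. Filled points have an adjusted p below 0.05. Gfap lies to the right at 1.59 to 2.95, and Aldh1l1, Slc1a3 and Aldoc lie to the left of 0 in all 3 comparisons.

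Of the other astrocyte genes, 15 of 59 were higher and 26 lower in series D than in C, beside 28.7% higher and 23.7% lower over all probes. Of the 10 filament and reactive genes 7 were higher in D. S100a6 was among them, with a difference of 1.78, and was above background on 15 of 15 arrays in D and 14 of 17 in C. For 3 of the 7 the count rests on probes seldom above background in C, so no size is given: Serpina3n was above it on 15 of 15 arrays in D and 4 of 17 in C, Steap4 on 8 and 1, and Osmr, named for this alone, on 6 and 0. Synm (-1.23) and Nes (-0.58) were lower in D. Of 7 transcription factors 5 were lower and 0 higher, among them Hes5 (-3.14), Id3 (-2.60) and Sox2 (-1.0), which neural stem cells use as well. Of 6 growth-linked genes 5 were lower, with Tnc at -1.52, Bcan at -0.90 and Fabp7 at -0.89. Of 8 metabolic genes 5 were lower, such as Phgdh, which starts serine synthesis (-0.93), while Pla2g7 was higher (2.04).

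Markers of other cells differed strongly between the series beside these genes. All 5 oligodendrocyte progenitor markers were lower in D than in A, B and C, and against C the largest differences were those of Sox10 (-4.67), Pdgfra (-3.41) and Cspg4 (-2.70). The mean level of that list ran from 3.90 to 6.09 in D and from 7.39 to 7.88 in C. Of 5 oligodendrocyte markers 4 were lower in D than in C, with Mbp at -6.43. Of 9 endothelial, mural and fibroblast markers 5 were higher, with Col1a1 at 3.02, and of 7 microglia markers 3 were higher and 3 lower. Tmem119, among the higher, was above background on 15 of 15 arrays in D and 4 of 17 in C. C1qa was above it on 15 of 15 in D and 0 of 17 in C, and Aif1 on 15 of 15 and 4 of 17. Csf1r was seldom above it in either, on 2 of 15 and 2 of 17. The microglia counts thus rest partly on probes at background in C and do not show a balance between the series. Of 10 neuron markers 7 were higher, with Gad2 at 1.64. Of 5 neural progenitor markers, which share Hes5, Sox2 and Nes with the astrocyte list, 4 were lower, with the proliferation marker Mki67 at -2.05. Of 3 choroid plexus and ependyma markers, Ttr was lower (-3.31). Their part in the differences of the astrocyte genes was not tested.

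After the mean of its series was taken from each value, most of the 10 genes varied together over the 55 arrays. The correlation of a gene with the mean of the other 9 was 0.91 for S100b, 0.89 for Glul, 0.88 for Aqp4, 0.79 for Gja1, 0.69 for Aldoc, 0.64 for Gfap, 0.61 for Slc1a2, 0.56 for Gjb6, 0.36 for Slc1a3 and -0.13 for Aldh1l1. The points share series, slide and time, so these values are descriptions. The 5 other genes most like the mean of the 10 were Plekhb1 (r = 0.94), Gpr37l1 (0.93), Slc25a18 (0.93), Acsbg1 (0.92) and Acadl (0.92). Their differences between 48 h and 0 h were 1.27, 1.5, 1.35, 0.76 and 1.02, which their choice favoured, since the mean of the 10 itself rose. Gpr37l1 and Acsbg1 stand on the astrocyte list, Slc25a18 is a mitochondrial glutamate carrier and Acadl an enzyme of fatty acid oxidation.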

How the data were processed

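RNA of rat hippocampal cultures was hybridised to 1-colour Agilent arrays. The deposited scanner files of the authors hold a background-subtracted intensity per spot (processed signal), extracted with Agilent Feature Extraction 12.0.3.1, not normalised between arrays, with build rn4 in the file headers. For each probe the authors also deposited a score, namely the z-score of its log signal within an array, which differed from z-scores computed here by at most 0.005 and was not used otherwise. The scanner files' other deposited columns (grid, background and outlier flags) were read as they stand.

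Outlier spots were left out, spots of 1 probe were averaged, and log2 signals were converted to z-scores within each array, as in the study's methods, then put back on the log2 scale by multiplying with 4.06, the median over arrays of the SD. The mean probe of an array is thus 0. Probes well above background on at least 3 of 55 arrays were tested (35694). Accessions were matched to RefSeq symbols of GRCr8, so no coordinates of probes are given, and 21109 of 45598 probes were named. The percentage of spots well above background ran from 66.1% to 81.8% and the correlation between arrays from 0.940 to 0.993. The number of arrays limits the precision.

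limma 3.58.1 (R 4.3.3) was fitted to all 55 arrays in 3 ways: group means (stimulated against sham), group plus series (series, and time averaged over arms), and series at each time plus arm (time within series). P-values were adjusted by the Benjamini-Hochberg method over all probes tested, and an adjusted p below 0.05 was a call. Series come from the sample numbers. Replicate numbers did not pair the samples: deviations from group means of same-numbered arrays had a mean correlation of 0.16, down to -0.46, against 0.40 for arrays of the same series. The fits were tested on simulated data with noise independent between arrays, so the correlation within series was not simulated.

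The 10 genes, the lists and the tests were chosen with earlier results of these data known. Genes named from the lists are up to 3 per direction with the largest change among those that passed. Not every gene that this rule selects is named in the text. The genes most like the 10 are those with the highest r. Alternatives were 75th percentile scaling, quantile normalization, normexp (on the median signal, as the mean signal is not used here), other filters, all 56 arrays, slide, series or replicate number as a block, the study's criteria, the mean of a gene's probes, and each array left out.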

Additional observations from a re-analysis of the deposited data

Results flagged for a closer look

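In groups of 4 arrays, 2 of 80 combinations of gene and group held an array far from the other 3, and chance gives about 1 in 20. Aqp4 in sham at 0 h was 6.79 on replicate 2, of series A, against a median of 8.25 on the others. Aldh1l1 in sham at 2 h was 3.68 on replicate 4, of series D, against 5.29.

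The change over time differed between culture series for 8 of the 10 genes by the interaction test (limma). The adjusted p was 0.00038 for Gfap, 0.0036 for Aqp4, 0.014 for Slc1a2, 0.0052 for Aldoc, 0.0014 for Aldh1l1, 0.00035 for S100b, 0.021 for Gjb6 and 1.3e-07 for Glul. Slides change with series and time in this layout. With the slide as a block, 5 of the 10 genes passed that test, and the share of all probes was not counted.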

How the results depend on the processing

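Of the 70 member changes followed over time and between series, 69 kept their direction and side of the threshold under 75th percentile scaling, 65 under quantile normalization, 62 under normexp, 70 under each of the other filters and 68 with the mean of a gene's probes. With the slide as a block only 39 did, while 29 no longer passed and 2 turned direction. The replicate block kept 59 and the fit of all 56 arrays kept 20. Against sham, 0 genes were called under every alternative run but 1: with all 56 arrays, 7 genes passed among the comparisons with sham and 7 among those of iTBS with 1 Hz, all at 2 h, where the array with the bad grid lies. That fit also gave 1 gene at 24 h, 2 at 48 h, 3 in the joint test over time, 4 for series and 0 for series by time. Within series A, B, C and D it gave 0, 2, 0 and 0 at 48 h, and for B against A, C against A, D against A, C against B, D against B and D against C it gave 2, 3, 3, 0, 2 and 3. Directions turned in it for D minus A of Slc1a3 (0.26) and of Aldoc (0.52), neither called.

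With the slide as a block, series by time gave 5 genes, series A, C and D at 48 h gave 5, 0 and 0, B against A gave 0 and D against B gave 3. Directions turned for Slc1a3 at 48 h (-0.0083) and for Aldh1l1 in C minus A (-0.0496), neither called. Without the series term 24 h gave 1 gene, 48 h gave 5 and the joint test 5. The test over sham times gave 1 gene under 75th percentile scaling, quantile normalization, normexp and the replicate block, 4 with a fixed series block and 2 with a random one.

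The replicate block, a number that does not pair the samples, gave 2 genes at 24 h, 2 for C against B and 5 for D against C, and turned Gja1 in D minus B (0.14) and in D minus C (0.061). Apart from these counts and that over sham times, it changed no count by over 1.5 times.

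Leaving out 1 array at a time gave 0 to 1 genes over sham times (1 without sham at 2 h replicate 2 or iTBS at 48 h replicate 2). It gave 2 to 5 at 24 h: 2 without sham at 0 h replicate 2, 1 Hz at 0 h replicate 1, 1 Hz at 24 h replicate 1 or iTBS at 24 h replicate 3. It gave 5 to 8 in series A at 48 h (5 without iTBS at 48 h replicate 1) and 1 to 6 for C against B (1 without any 1 of the 3 series B arrays at 0 h). Without 1 Hz at 8 h or 24 h replicate 1, the only arrays of series A at those times, the fits within series were not run.

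Signal over background limits Gjb6 alone, and 2 to 4 arrays per group leave standard errors of up to 1.08 against sham.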
